A study of Mus musculus with 25 samples.

Results

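The colony-stimulating factors and their receptors were followed as 8 genes, 3 ligands (Csf1, Csf2 and Csf3) and 5 receptor chains (Csf1r, Csf3r, Csf2ra, Csf2rb and Csf2rb2), chosen by symbol from a table of 25006 mouse genes. All 8 were found, and all 8 reached the mean of 10 normalized counts needed for testing, Csf2 through a single library. The material was bulk RNA of preparations labelled as enriched CD8+ T cells, taken from the microenvironment of tumours grown from E0771, a mouse mammary carcinoma line, in C57BL/6 animals. The 3 control libraries carry the treatment label con, with no other agent named. The 3 anti-CD73 libraries came from animals with such tumours given an antibody against CD73 every 3 days. CD73 is the cell-surface enzyme that turns extracellular AMP into adenosine. Age, the host's genotype and whether a library stands for a single animal are not given in the labels, so p-values measure only the spread between these libraries, which may be technical. The other 19 of the 25 samples, RNA and chromatin libraries of spleen CD8+ T cells kept 7 days in culture, were not analysed here.

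Colony-stimulating factors are secreted proteins that keep myeloid cells alive and drive their division and maturation. Csf1 encodes M-CSF, which signals through the receptor tyrosine kinase Csf1r on monocytes and macrophages. Csf3 encodes G-CSF, the main growth factor of neutrophils, which signals through Csf3r. Csf2 encodes GM-CSF, which binds a private alpha chain, Csf2ra, paired with the common beta chain Csf2rb. Mice carry a further beta chain, Csf2rb2, which serves IL-3. In tumours, cancer cells and stroma are known sources of the ligands, and infiltrating myeloid cells carry the receptors.

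Recovered reads ranged from 10180624 to 17161679 per library. Values are normalized counts, that is gene counts divided by a size factor per library, and they are compared between libraries for a gene and never between genes, since they are not per length. Control replicate 1 stood apart from the other controls, and results are also given without it. Every library was left out in turn, and the weight given to this one followed from the data. Of the genes that define the labelled cell type, Cd8a was found at between 7.60 and 122 normalized counts and Cd8b1 at between 7.60 and 58.9 per library. Genes of other cells were also found. The myeloid gene Lyz2 was at 973 or more in every library. Of 7 epithelial markers Krt8 was at 1856 or more in every library, while Krt19, Krt14 and Krt5 were at 0 in some. In such bulk RNA, more cells that carry a receptor and more receptor RNA in each cell cannot be told apart.

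All 5 receptor chains lay higher after anti-CD73, by between 1.73-fold for Csf1r and 3.06-fold for Csf3r in the limma fit, but none of the 8 genes passed the test over all genes with 6 libraries. By limma on log2(normalized count + 1) with Benjamini-Hochberg adjustment, 0 of 12262 genes passed an adjusted p of 0.05, a background of 0%, and edgeR's quasi-likelihood test on recovered reads also called 0 (1868 at an unadjusted p under 0.05). Of the 8 members, 6 had a log2 fold change above 0, against 50.5% of all tested genes, and their median was 1.03 against 0.0039 over all genes. The split depended on scaling: at an unadjusted limma p under 0.05, 1066 genes were higher and 836 lower, and scaling by total count gave 1442 and 522. All 8 members kept their direction under total count, TMM and quantile scaling. At an unadjusted p under 0.05, 3 of 8 members were higher (Csf1r, Csf3r and Csf2ra), against 8.69% of all tested genes. The groups did not overlap, with anti-CD73 higher, for 2 of 8 (Csf3r and Csf2ra), against 11.5% of all tested genes, and with anti-CD73 lower for 0 of 8, against 12%. DESeq2 on recovered reads called the same 2, both higher, against 2.92% of genes called higher.

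Without control replicate 1, limma called 6 of the 8 members, all higher, against 11.9% of all tested genes called higher and 10.3% called lower, and Csf1 and Csf2 were not called. The median log2 fold change of the 8 members was then 1.63, against -0.015 over all tested genes. The same number, 6 of 8, was called by edgeR (12.3% of genes called higher) and by DESeq2 (12.3%) without that library. Leaving out any other single library left limma and edgeR at 0 members. In the plot of the 8 genes by library, control replicate 1 was the highest of the 6 libraries for 4 members, and control replicate 3 was the lowest for all 8.

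**Figure D1:**
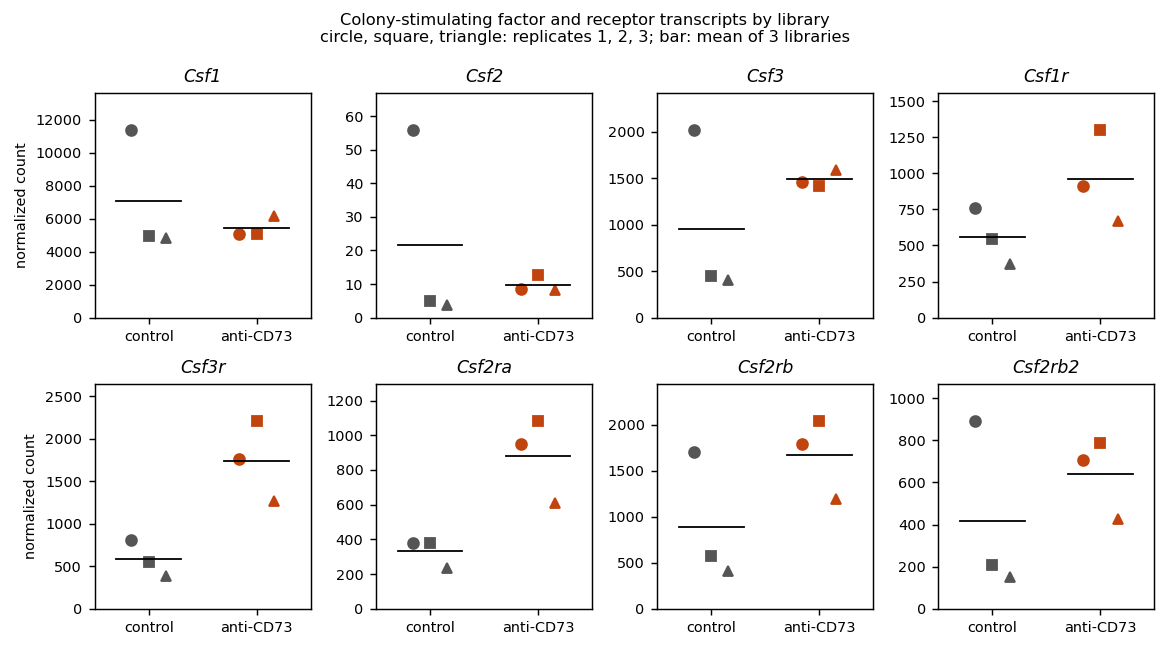
Normalized counts (vertical axes, each from 0) of the 3 ligands and 5 receptor chains in the 3 control and 3 anti-CD73 libraries, with circle, square and triangle for replicates 1, 2 and 3 and a bar for the mean. The groups separate for Csf3r and Csf2ra, whereas control replicate 1 lies above every anti-CD73 library for Csf1, Csf2, Csf3 and Csf2rb2.

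Csf1, which encodes M-CSF (ENSMUSG00000014599, mm10 chromosome 3, 107741048 to 107760469), read 11372, 4967 and 4806 normalized counts in control replicates 1 to 3, against 5055, 5076 and 6186 in the anti-CD73 libraries. Control replicate 1 was more than any other library, and the remaining 5 lay within a narrow range. The log2 fold change was -0.26 (SE 0.32, 95% interval -1.01 to 0.49, limma adjusted p = 0.738) and turned to 0.15 (adjusted p = 0.32) without control replicate 1. The interval lies below those of Csf3r (0.91 to 2.32) and Csf2ra (0.77 to 2.03). It overlaps those of Csf1r (0.05 to 1.53), Csf2rb (-0.012 to 2.31) and Csf2rb2 (-0.43 to 2.47). The difference between ligand and receptors was tested for Csf1r alone, where the groups overlapped (exact permutation p = 0.2).

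Csf2, which encodes GM-CSF (ENSMUSG00000018916, mm10 chromosome 11, 54247270 to 54249899), was scarce. It had 55, 4 and 5 reads in control replicates 1, 2 and 3 and 9, 12 and 8 reads after anti-CD73, or 55.8, 5.07 and 3.74 against 8.37, 12.7 and 8.23 normalized counts. The 55 reads (95% exact Poisson interval 41.4 to 71.6, counting error only) lie apart from the 4 and 5 reads of the other controls (1.09 to 10.2 and 1.62 to 11.7). The mean over the other 5 libraries was 7.62 normalized counts, under the minimum of 10. The log2 fold change was -0.16 (SE 0.91, limma adjusted p = 0.953) with 6 libraries and 0.98 (adjusted p = 0.184) without control replicate 1, so no direction can be given for Csf2 at this depth.

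Csf3, which encodes G-CSF (ENSMUSG00000038067, mm10 chromosome 11, 98700183 to 98703631), read 2017, 450 and 409 normalized counts in control replicates 1 to 3, against 1457, 1419 and 1587 in the anti-CD73 libraries. The 3 anti-CD73 libraries were close together (1487 ± 88.0, SD, n = 3), and control replicates 2 and 3 were close together far below them. Control replicate 1 was 4.69 times the mean of the other controls and exceeded every anti-CD73 library. With all libraries the log2 fold change was 1.05 (SE 0.56, 95% interval -0.26 to 2.35, limma adjusted p = 0.413), and edgeR and DESeq2 gave 0.66 and 0.64. Without control replicate 1 it was 1.79, a fold of 3.46, with an adjusted p of 0.000195, the lowest of all 12262 genes, and Csf3 also ranked 1 by p in edgeR and DESeq2 without that library. Without control replicate 2 it was 0.71 in limma and 0.28 in edgeR, and without control replicate 3 it was 0.64 and 0.25. The call for Csf3 rests on leaving out control replicate 1.

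Csf1r, the M-CSF receptor that marks monocytes and macrophages (ENSMUSG00000024621), read 756, 542 and 370 normalized counts in control replicates 1 to 3, against 911, 1299 and 667 in the anti-CD73 libraries. The groups overlapped, because control replicate 1 exceeded anti-CD73 replicate 3. The log2 fold change over 6 libraries was 0.79 (SE 0.32, limma adjusted p = 0.296). It was 1.04 when control replicate 1 was left out (adjusted p = 0.021) and 0.53 when control replicate 3 was.

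Csf3r, the receptor through which G-CSF acts on neutrophils (ENSMUSG00000028859, mm10 chromosome 4, 126023441 to 126044975), read 810, 549 and 382 normalized counts in control replicates 1, 2 and 3, against 1757, 2202 and 1262 in anti-CD73 replicates 1, 2 and 3. Every anti-CD73 library lay above every control. The log2 fold change was 1.61 (SE 0.30, 95% interval 0.91 to 2.32, limma adjusted p = 0.141), and 78 of the 12262 tested genes had a smaller p. Leaving out single libraries moved it between 1.35 (without control replicate 3) and 1.89 (without control replicate 1, adjusted p = 0.00203).

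Csf2ra, the chain that gives the GM-CSF receptor its specificity (ENSMUSG00000059326, mm10 chromosome 19, 61217191 to 61228461), read 381, 379 and 236 normalized counts in control replicates 1 to 3, against 951, 1080 and 612 in the anti-CD73 libraries. Here control replicate 1 matched control replicate 2, and the groups were again apart. The log2 fold change was 1.40 (SE 0.27, 95% interval 0.77 to 2.03, limma adjusted p = 0.141), and it was 1.52 without control replicate 1 (adjusted p = 0.00519). DESeq2 gave Csf3r an adjusted p of 0.000182 and Csf2ra one of 0.00026, and it called both with any single library left out.

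Csf2rb, the beta chain shared by the receptors for GM-CSF, IL-3 and IL-5 (ENSMUSG00000071713, mm10 chromosome 15, 78325800 to 78351001), read 1703, 570 and 411 normalized counts in control replicates 1 to 3, against 1797, 2038 and 1189 in the anti-CD73 libraries. Csf2rb2, the mouse beta chain of the IL-3 receptor (ENSMUSG00000071714, mm10 chromosome 15, 78282507 to 78305721), read 889, 208 and 152 in control replicates 1 to 3, against 709, 786 and 425 in the anti-CD73 libraries. In both genes control replicates 2 and 3 lay below every anti-CD73 library, while control replicate 1 fell within the anti-CD73 range for Csf2rb and above it for Csf2rb2. The log2 fold changes were 1.15 for Csf2rb (SE 0.50, limma adjusted p = 0.325) and 1.02 for Csf2rb2 (SE 0.62, adjusted p = 0.469), and without control replicate 1 they were 1.75 (adjusted p = 0.00241) and 1.79 (adjusted p = 0.00301). Without control replicate 3 they were 0.73 and 0.52 in limma and 0.54 and 0.20 in edgeR. With all 6 libraries Csf2rb2 had 0.65 in edgeR and 0.62 in DESeq2, and Csf2rb had 0.93 and 0.91.

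The pair sit next to each other, 20078 bases apart, with 0 annotated genes wholly between them. They are near copies, and how reads that match both were counted is not given in the labels, so the split between them is uncertain. The ratio of Csf2rb2 to Csf2rb was 0.522 in control replicate 1 and between 0.357 and 0.394 in the other 5 libraries.

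The promoter windows at hand for receptor chains that lay higher are shown with that of Csf1, a ligand that did not, so that their motif content can be compared. Each is the 250 bases before the start that RefSeq's promoter table gives in GRCm38.p6, read 5′ to 3′ on the gene's strand, with motif matches in capitals. Windows were at hand for 5 of the 8 members, with none for the receptor chains Csf1r and Csf2rb or the ligand Csf3. That of Csf2, which held no match, is not printed. The Csf3r window lies inside the annotated span of the gene, as does the end of the Csf2ra window nearest the start, which holds both PU.1 matches.
Csf3r (chr4:126024409-126024658, plus strand): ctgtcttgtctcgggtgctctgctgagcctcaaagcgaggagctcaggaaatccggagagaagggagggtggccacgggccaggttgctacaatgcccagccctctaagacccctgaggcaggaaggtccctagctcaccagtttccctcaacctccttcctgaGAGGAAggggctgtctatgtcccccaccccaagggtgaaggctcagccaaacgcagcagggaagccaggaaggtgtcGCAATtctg
Csf2ra (chr19:61228419-61228668, minus strand): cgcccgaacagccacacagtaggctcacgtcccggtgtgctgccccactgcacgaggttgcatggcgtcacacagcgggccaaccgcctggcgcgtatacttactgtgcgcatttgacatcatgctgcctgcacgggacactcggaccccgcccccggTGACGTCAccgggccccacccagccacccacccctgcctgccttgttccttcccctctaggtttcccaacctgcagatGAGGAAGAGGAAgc
Csf2rb2 (chr15:78305722-78305971, minus strand): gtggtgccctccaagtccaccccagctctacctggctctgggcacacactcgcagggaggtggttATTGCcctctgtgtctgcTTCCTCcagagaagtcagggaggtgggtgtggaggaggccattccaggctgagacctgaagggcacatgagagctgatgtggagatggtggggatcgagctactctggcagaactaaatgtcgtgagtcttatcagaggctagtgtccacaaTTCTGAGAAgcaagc
Csf1 (chr3:107760470-107760719, minus strand): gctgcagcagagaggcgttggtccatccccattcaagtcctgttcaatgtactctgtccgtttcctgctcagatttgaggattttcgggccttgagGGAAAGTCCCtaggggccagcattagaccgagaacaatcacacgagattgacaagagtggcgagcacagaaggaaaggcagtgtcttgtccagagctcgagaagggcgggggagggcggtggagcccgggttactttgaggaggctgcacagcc

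The motifs searched, on both strands, were GAGGAA, a core bound by the myeloid factor PU.1, GCAAT, a core of C/EBP sites, TGACGTCA, the cyclic AMP response element, TGANTCA for AP-1, TTCNNNGAA for STAT proteins and the NF-kB motif, and no matches overlapped. All 3 receptor windows held the PU.1 core, in 2 tandem copies in Csf2ra at 14 to 3 bases before the start, against 23.3% of 32851 windows of this length. The ligand windows, Csf1 and Csf2, did not hold it. The C/EBP core was found in Csf3r, at 9 to 5 bases before the start, and in Csf2rb2, against 23.1% of all windows. Csf2ra alone among the 5 held the cyclic AMP response element, at 92 to 85 bases before the start, against 1.55% of windows. Csf2rb2 alone held the STAT motif, at 15 to 7 bases before the start, against 7.02%, and Csf1 alone the NF-kB motif, at 154 to 145 bases before it, against 0.356%. The AP-1 motif, found in 6.75% of windows, was in none of the 5. A match is a run of letters and shows no binding.

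**Figure D2:**
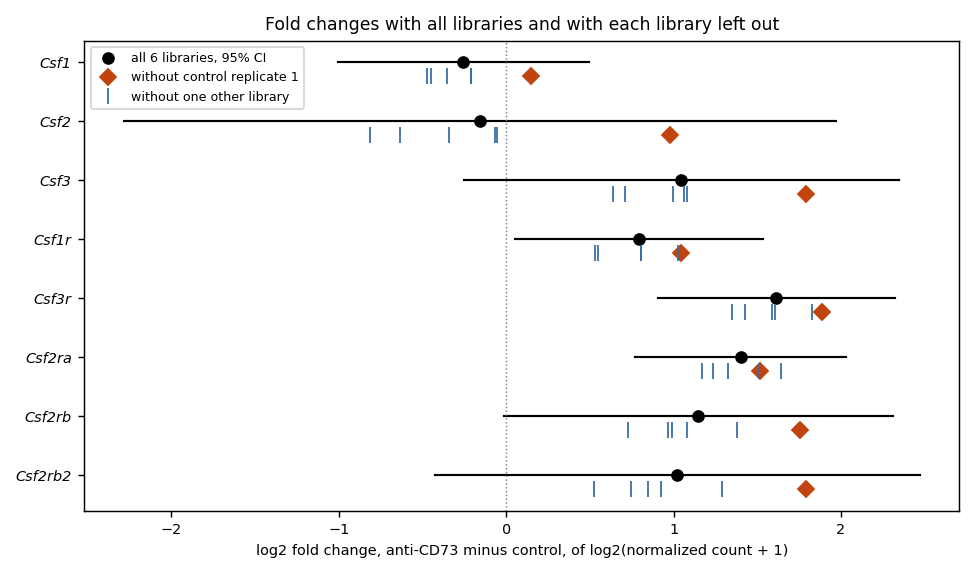
Log2 fold changes (horizontal axis, anti-CD73 minus control) of the 8 genes with all 6 libraries (black points, 95% intervals from limma), without control replicate 1 (diamonds) and without each other library (ticks). Csf3r and Csf2ra stay at 1.17 or more in each case, Csf3, Csf2rb and Csf2rb2 reach between 1.75 and 1.79 without control replicate 1, and Csf1 and Csf2 change sign without it.

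Differences of log2 levels within a library set the receptors against each other nearly free of its scaling. The log2 level of Csf3r minus that of Csf1r was 0.10, 0.02 and 0.05 in the controls and 0.95, 0.76 and 0.92 after anti-CD73. Control replicate 1 lay with the other controls here, and the groups were far apart relative to their spread (0.05 ± 0.04 against 0.88 ± 0.10, SD, n = 3). The difference of 0.82 had an exact permutation p of 0.1 (two-sided), the smallest that 3 against 3 libraries allow. The G-CSF receptor lay higher relative to the M-CSF receptor in 3 of 3 anti-CD73 libraries.

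For Csf1r, the log2 level minus the mean of 15 macrophage markers was 0.12, 0.17 and -0.04 in the controls and 0.13, 0.44 and 0.19 after anti-CD73. The groups overlapped, and the difference of 0.17 had an exact permutation p of 0.2. It was 0.061 over markers with a mean of at least 50, 0.055 against the summed marker level and 0.078 without anti-CD73 replicate 2. Csf3r minus the mean of 13 neutrophil markers was 1.41, 0.28 and -0.05 in the controls and 1.44, 1.56 and 1.49 after anti-CD73. Control replicate 1 lay close to the anti-CD73 libraries in that ratio, the difference was 0.95 and the exact permutation p was 0.1.

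Csf1r relative to its ligand Csf1 was -3.91, -3.19 and -3.70 in the controls and -2.47, -1.97 and -3.21 after anti-CD73. The difference was 1.05 (exact permutation p = 0.2), with anti-CD73 replicate 3 just below control replicate 2. Csf2ra relative to Csf2rb was -2.16, -0.59 and -0.80 in the controls and -0.92, -0.92 and -0.96 after anti-CD73. Control replicate 1 had the lowest alpha to beta ratio of any library. The difference of 0.25 (exact permutation p = 1) turned to -0.24 without it. The 5 ratios form a family in which no p could fall below 0.1, so none was adjusted.

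**Figure D3:**
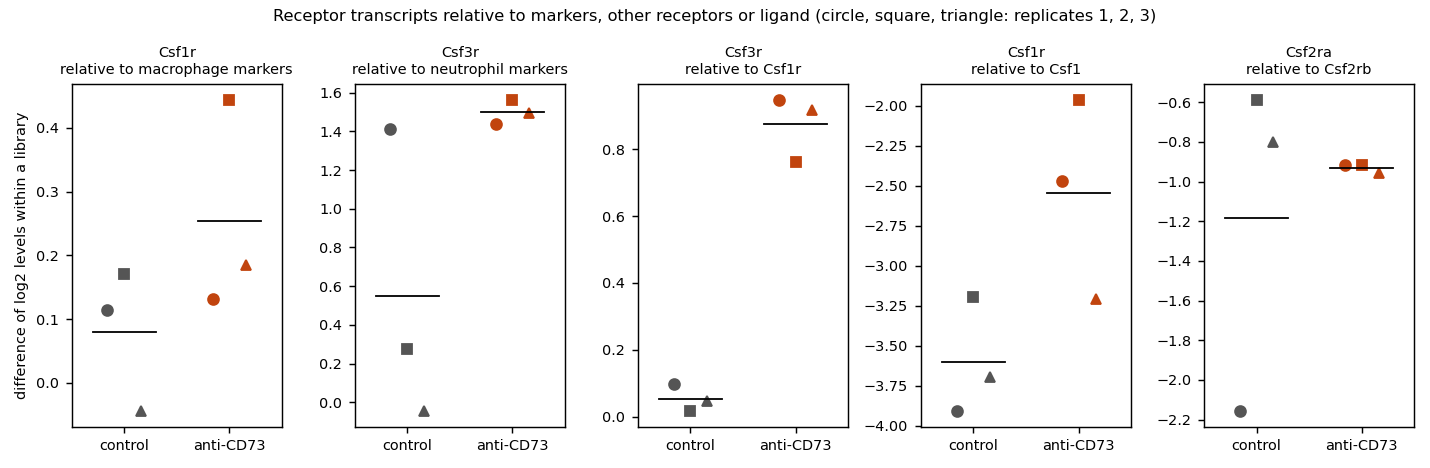
Differences of log2 levels within each library (vertical axes, not from 0) for 5 ratios, in control and anti-CD73 libraries, with circle, square and triangle for replicates 1, 2 and 3 and a bar for the mean. Csf3r relative to Csf1r separates the groups with every control at 0.10 or less and every anti-CD73 library at 0.76 or more, while the other ratios overlap or, for Csf3r relative to neutrophil markers, nearly meet at control replicate 1.

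Over the 6 libraries the members fell into overlapping patterns, given as a description. Csf3r and Csf2ra followed each other (Pearson r of log2 levels 0.98, n = 6 libraries), as did Csf2rb and Csf2rb2 (0.99), Csf3 and Csf2rb2 (0.94), and Csf1 and Csf2 (0.92), where control replicate 1 was the high point. The r of Csf1r with Csf3r was 0.94, with Csf2rb 0.93, with Csf2ra 0.91 and with Csf2rb2 0.88. The r of Csf1 with Csf3r was -0.03 and with Csf2ra -0.19. These values share libraries and depth and carry no test. Among tested genes, the pattern of Csf3r was closest to those of Sorl1, Nsd1 and Notch1, that of Csf2ra to Arhgef10l, Itpkb and Fry, and that of Csf1r to Stard5, Map2k1 and Nup210, each with r between 0.995 and 0.999. Csf2rb was closest to Rasgrp1, Arg2 and Rbm47, Csf2rb2 to Plek, Slc29a3 and Cd86, and Csf3 to Pax5, Taf7 and Arntl2. Csf1 was closest to Ltn1, Sec24a and Tra2a, and Csf2 to Mbtd1, Dyrk1a and Smndc1. These nearest genes were picked from 12262 over only 6 libraries.

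Markers of the myeloid cells known to carry these receptors also leaned higher, and T cell and endothelial markers are given beside them. Macrophage markers summed to between 9924 and 19594 normalized counts in the controls and between 16895 and 28021 after anti-CD73, with 14 of 15 tested genes higher (median log2 fold change 0.69) and 5 of 15 higher without overlap (11.5% of all tested genes). Neutrophil markers summed to between 8697 and 10842 in the controls and between 12379 and 20042 after anti-CD73, with 10 of 13 tested genes higher (median 0.89) and 6 of 13 higher without overlap. Dendritic cell markers summed to between 365 and 884 and then between 703 and 1107 (7 of 7 higher, median 0.58). T cell markers summed to between 258 and 861 and then between 452 and 806 (12 of 12 higher, median 0.68). Endothelial markers summed to between 204 and 776 and then between 558 and 871 (4 of 4 higher, median 0.85). The macrophage, dendritic, T cell and endothelial sums each overlapped between the groups, and the neutrophil sum did not. The T cell sum was highest in control replicate 1. Only 1 of 7 dendritic, 1 of 12 T cell and 0 of 4 endothelial genes were higher without overlap.

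Mast cell, basophil and eosinophil markers, from cells that also carry the common beta chain, were near 0 in most cases. Only 5 of 12 were tested, and 5 of 5 lay higher (median 1.08), 0 of 5 without overlap. The list summed to between 51.6 and 295 in the controls, highest in control replicate 1, and between 107 and 240 after anti-CD73. Ms4a2, Mcpt8, Epx, Prg2 and Gata1 were at 0 in at least 1 library. The neutrophil genes Camp and Elane were also at 0 in some libraries. Of 7 epithelial tumour markers 3 were tested, with 1 higher (median -0.29). The list summed to between 1960 and 4664 in the controls and between 2127 and 2704 after anti-CD73, with overlap. Among the 4 untested, Cdh1 (mean 4.63 in the controls, 15.3 after anti-CD73), Krt14 and Krt5 were higher in the mean and Epcam was lower. Erythroid markers leaned lower (0 of 5 higher, median -0.73), 0 of 5 without overlap. That list summed to between 7845 and 58716 in the controls, lowest in control replicate 1, and between 8412 and 30978 after anti-CD73. Fibroblast markers were higher in 6 of 9 (median 0.24), 3 of 9 without overlap, against 11.5% of all tested genes. Those of NK and B cells were higher in 2 of 6 (median -0.11). By limma with 6 libraries 0 genes of these lists passed. The part of cell make-up in the receptor values was not tested.

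**Figure D4:**
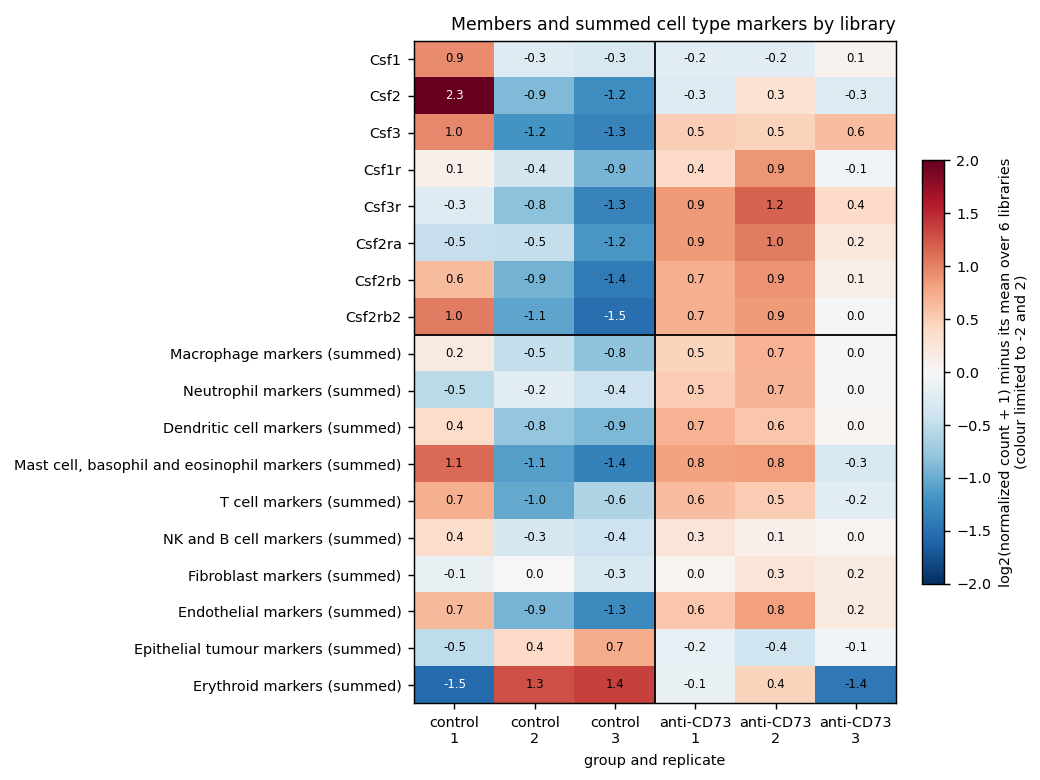
Log2(normalized count + 1) minus its mean over the 6 libraries (colour and printed value) for the 8 members and for the summed counts of 10 cell type marker lists (rows), in each library (columns). Csf3r and Csf2ra are above their mean in the 3 anti-CD73 libraries only. In control replicate 1, all members but Csf3r and Csf2ra are above their means. The summed macrophage, dendritic, T cell, NK and B cell, endothelial and mast cell lists are also above theirs there. In anti-CD73 replicate 3, Csf2, Csf1r and Csf2rb2 are below their means, Csf1r and Csf2rb2 only slightly. The summed macrophage, neutrophil, T cell, mast cell, epithelial and erythroid lists are also below theirs there.

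Relatives of the family were given whatever their values. Il3ra, the alpha chain that pairs with the beta chains to bind IL-3, read 81.2, 45.6 and 47.1 normalized counts in control replicates 1 to 3, against 120, 162 and 101 in the anti-CD73 libraries. The groups did not overlap, and the log2 fold change was 1.15 (SE 0.30, limma adjusted p = 0.177), or 1.41 without control replicate 1 (adjusted p = 0.00461). Il34, which encodes another ligand of Csf1r, read 59.9, 156 and 178 in control replicates 1 to 3, against 75.3, 81.5 and 122 in the anti-CD73 libraries. Control replicate 1 was its lowest library, and the log2 fold change was -0.38 (SE 0.42, adjusted p = 0.705), or -0.87 without control replicate 1 (adjusted p = 0.0268).

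Il3, which lies beside Csf2 (mm10 chromosome 11, 54265085 to 54267279), had 1 read in control replicate 1 and 0 in the other libraries, where a count of 0 allows up to 3 reads. Il5 had at most 2 reads in any library, and Il5ra, its alpha chain, at most 4. Transcripts of the ligands IL-3 and IL-5 were at or under the detection limit, while Csf2rb, the beta chain they share, was measured in every library. Kitl, which encodes stem cell factor, leaned lower, with 2903, 1954 and 1723 normalized counts in control replicates 1 to 3, 1283, 1130 and 1543 in the anti-CD73 libraries, and no overlap (log2 fold change -0.71, SE 0.21, limma adjusted p = 0.199). The gene for the FLT3 ligand, Flt3l, had -0.54 (SE 0.27) and its receptor gene Flt3 had 0.58 (SE 0.39).

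Genes listed for signalling by these and other leukocyte receptors lay higher more often than lower. Of 23 kinases, adaptors and STAT genes, 0 passed the limma test with 6 libraries in either direction, 18 had a log2 fold change above 0 and the median was 0.40. The groups did not overlap for 13 of them, 11 higher (11.5% of all tested genes) and 2 lower (12%). Without control replicate 1, 11 were called higher (11.9% of all tested genes) and 1 lower (10.3%). Pik3r5, a regulatory subunit of a PI3-kinase of leukocytes, had a log2 fold change of 1.15 (SE 0.27) and the Janus kinase gene Tyk2 had 0.78 (SE 0.14). Pik3r1, the regulatory subunit found in most cells, went the other way, from 1306, 1205 and 1283 to 794, 622 and 783, with no overlap (-0.79, SE 0.13, limma adjusted p = 0.141).

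Brakes on the same receptors were described likewise. Of the 13 tested, 10 had a log2 fold change above 0, the median was 0.55, 0 passed with 6 libraries, and 7 were called higher and 1 lower without control replicate 1, against 11.9% and 10.3% of all tested genes. Ptpn6, the phosphatase SHP-1 of blood cells, read 743, 684 and 742 normalized counts in control replicates 1 to 3, against 1518, 1656 and 1119 in the anti-CD73 libraries (log2 fold change 0.97, SE 0.16, limma adjusted p = 0.141). Control replicate 1 matched the other controls here. Dok3 had 0.88 (SE 0.23) and Inpp5d, the lipid phosphatase SHIP, 0.55 (SE 0.16), both with groups that did not overlap. Across the list the groups did not overlap for 4 higher (11.5% of all tested genes) and 2 lower (12%). The 2 lower, named after their values were seen, were Socs3 (-0.36, SE 0.14) and Socs1 (-0.29, SE 0.15).

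Cish, a STAT5 target that feeds back on beta-chain receptors, read 141, 35.5 and 53.1 normalized counts in control replicates 1 to 3, against 275, 274 and 125 in the anti-CD73 libraries. Control replicate 1 exceeded anti-CD73 replicate 3, and the log2 fold change was 1.70 (SE 0.53, limma adjusted p = 0.209), or 2.26 without that control (adjusted p = 0.00373). The list of 11 response genes to which Cish belongs did not lean: 6 were higher and 5 lower, with a median of 0.06 and 0 called. Pim1, a kinase induced by STAT5, had 1.06 (SE 0.31), Osm had 0.50 (SE 0.31) and Myc had -0.43 (SE 0.15), with 3 of the 11 called higher and 1 lower without control replicate 1, against 11.9% and 10.3% of all tested genes.

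Myeloid transcription factors leaned higher, with 14 of 15 tested genes above 0 and a median of 0.52. By limma 0 passed with 6 libraries, and 8 were called higher and 1 lower without control replicate 1, against 11.9% and 10.3% of all tested genes. Spi1, which encodes PU.1, the factor whose core motif was searched above, read 672, 663 and 574 normalized counts in control replicates 1 to 3, against 1570, 1764 and 965 in the anti-CD73 libraries (log2 fold change 1.13, SE 0.23, adjusted p = 0.149). All 3 controls were close together, and every anti-CD73 library was above them. Irf8, a factor of monocyte development, had 0.79 (SE 0.19). Klf4 was the exception, at 2094, 2160 and 2300 in the controls and 1364, 1394 and 1197 after anti-CD73 (-0.73, SE 0.11, limma adjusted p = 0.141).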

How the data were processed

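Bulk RNA values of 6 mouse tumour libraries, 3 control and 3 anti-CD73, were used, grouped and numbered by their titles. The deposited values have the unit signal: counts per gene which, per the labels, the authors normalized with DESeq. The submitters' processing notes list Bowtie 0.12.7 and the build mm10. The counter, the treatment of reads with several matches and strand are not stated. All values were whole multiples of the value of 1 read (100% within 0.01), so reads were recovered by division.

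Groups were compared by limma-trend (limma 3.58.1 in R 4.3.3) over log2(normalized count + 1), unblocked and two-sided, for the 12262 genes with a mean of at least 10, adjusted by Benjamini and Hochberg. Fold changes on this scale understate changes of genes with few reads. edgeR 4.0.16 (quasi-likelihood, TMM) and DESeq2 1.42.0 were run on recovered reads as alternatives, and single ratios were tested by exact permutation. The other settings are listed in the closing section. All 8 members and 5 relatives were named whatever their values, as were up to 4 genes per list with the smallest p and the 3 genes most like each member. Of these, 2 genes are not reported here. Of the entries, 24942 Ensembl IDs were in the reference name table. Gene lists were written from general knowledge, and Slap, Trac, Trbc2, Hbb-bs and Hbb-bt had no entry by that symbol. The members and lists were chosen with earlier results of these data known. Coordinates and promoters, matched by symbol, are from RefSeq on GRCm38.p6, the assembly of mm10. The fits were tested on simulated data. Figures were drawn with matplotlib 3.10.9.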

Additional observations from a re-analysis of the deposited data

How the results depend on the processing

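The settings tried were a pseudocount of 0.5 or 8, testing without a filter or from a mean of 50, TMM, total count and quantile scaling, robust empirical Bayes, edgeR, DESeq2, 2 replicate blocks and each library left out in turn, also in edgeR and DESeq2. Ratios to markers were also taken over markers with a mean of at least 50 and against their sum. Csf3, Csf1r, Csf3r, Csf2ra, Csf2rb and Csf2rb2 kept a log2 fold change above 0 in all 30 alternatives, Csf3r between 1.35 and 1.93, Csf2ra between 1.17 and 1.64, Csf1r between 0.51 and 1.10, Csf2rb between 0.54 and 1.80, Csf3 between 0.25 and 1.82 and Csf2rb2 between 0.20 and 1.86. At a mean of 50 Csf2 was not tested.

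With each library left out, limma called between 0 and 2724 genes and between 0 and 6 members, the highest in both without control replicate 1. DESeq2 called 592 genes and 2 members with all libraries. Leaving out a library gave 2703 genes and 6 members in edgeR without control replicate 1 and 0 in its other fits. DESeq2 then called between 52 (without anti-CD73 replicate 2) and 2679 genes (without control replicate 1), with 161 and 282 without control replicates 2 and 3 and 88 and 437 without anti-CD73 replicates 1 and 3, and between 2 and 6 members.

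The replicate numbers only name samples, so they were not taken as pairs. Same-numbered libraries deviated with r = 0.19, -0.10 and 0.26, and other-numbered ones with r between -0.27 and 0.19. Deviations from means of 3 libraries cannot settle whether libraries were paired. The replicate block by title number called 0 genes and 0 members. Its SE was 0.15 for Csf2ra and 0.21 for Csf1r, against 0.27 and 0.32 unblocked. The replicate block by description number, in which control replicate 1 and anti-CD73 replicate 2 have no partner, called 1780 genes and 6 members and gave 0.19 for Csf1 and 0.79 for Csf2.

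Without control replicate 1, Csf1 turned to 0.15 in limma, 0.17 in edgeR and 0.17 in DESeq2, Csf2 to 0.98, 1.18 and 1.19, and the log2 ratio of Csf2ra to Csf2rb to -0.24. With single libraries left out, limma values ranged from -0.47 to 0.15 for Csf1 and from -0.81 to 0.98 for Csf2, and that ratio from -0.24 to 0.55. The cause was not tested. The other 4 ratios kept their direction. Depth limits Csf2, Il3, Il5 and Il5ra.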

Other observations

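Genes listed for the induction of the ligands, which include the negative regulators Nfkbia and Zc3h12a, did not lean as a group. Of 17 tested, 9 had a log2 fold change above 0 and 8 below, with a median of 0.01, and limma called 0. Il1b, a cytokine that induces Csf3 and Csf2 in many cells, read 7385, 1818 and 1110 normalized counts in control replicates 1 to 3, against 7265, 7310 and 4585 in the anti-CD73 libraries. It shared with Csf3 the high value in control replicate 1. Its log2 fold change was 1.34 (SE 0.63, limma adjusted p = 0.357), or 2.14 without that control (adjusted p = 0.00172). Il17a had 0 reads in all 6 libraries. Nfatc2 (-0.72, SE 0.29), Nfkbiz (-0.35, SE 0.16) and Nfatc1 (-0.32, SE 0.17) leaned lower.

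Cxcr2, the chemokine receptor of mature neutrophils, read 361, 345 and 257 normalized counts in control replicates 1 to 3, against 900, 810 and 664 in the anti-CD73 libraries (log2 fold change 1.30, SE 0.18), and Hdc, Il1r2 and S100a9 had 1.21, 0.90 and 0.89. The granule gene Ngp had 22.3, 179 and 172 in the controls and 120, 148 and 39.1 after anti-CD73 (-0.0017, SE 0.85). Padi4 had 156, 371 and 386 and then 232, 195 and 279 (-0.28, SE 0.35), and Retnlg had 86.3, 398 and 314 and then 456, 636 and 281 (0.97, SE 0.57). In control replicate 1 these last 3 genes were lower than in the other controls, while Ly6g (253 against 93.8 and 117), Trem1 (636 against 436 and 317) and Hdc (1705 against 1073 and 929) were higher there. Ngp, Padi4, Retnlg, Ly6g and Trem1 were chosen after their values were seen.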
